A study of Mus musculus with 86 samples.

Results

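Genes that mark the choroid plexus, Ttr, Kl, Folr1, Aqp1, Clic6, Slc4a5, Prlr, Sostdc1, Steap1 and Enpp2, were followed through RNA-seq libraries of 3 brain regions of wild house mice. They were found by matching Ensembl gene IDs of the count table to these symbols, and all 10 were present among 35275 genes. The animals were free-living Mus musculus domesticus of a barn population near Zurich, of mixed estimated age and fed ad libitum, caught in winter outside the breeding season and given no treatment. Mice with a small or a large social network size, the number of different partners met in nest boxes per day, were compared within each sex. The paper reports no significant difference in estimated age between these groups, with the lowest mean in males of the small group. It also reports that the large networks of sampled males were less extreme than those of females. In all, 29 animals gave 86 libraries, and no library pooled animals or regions. The prefrontal cortex and the hippocampus were represented by 7 females with small, 7 females with large, 8 males with small and 7 males with large social network size. The hypothalamus was represented by 7 animals of each of these groups. The regions were micropunched from frozen coronal slices, so each library holds every cell type that lay in the punches.

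The choroid plexus is a folded sheet of epithelium inside the brain ventricles that secretes cerebrospinal fluid and forms the barrier between blood and that fluid. The plexus of the lateral ventricles lies against the hippocampus, and that of the third ventricle lies in its roof, whereas the prefrontal cortex has none of its own. Its epithelial cells are known for very high transthyretin mRNA and for water channels, ion transporters and receptors that are scarce elsewhere in the brain, although several of these genes are also used by neurons or glia.

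Total counts per library ranged from 33711824 to 81865801 with a median of 44778419. The region labels were checked against marker lists. In the hypothalamus, 8 of 8 hypothalamic markers were higher than in both other regions, and 6 of 6 cortical markers were lower in the hypothalamus and hippocampus than in the prefrontal cortex. Of 6 hippocampal markers, 4 were higher and 1 was lower in the hippocampus than in the prefrontal cortex. A pair of libraries stood apart in the choroid plexus genes: the prefrontal cortex library of animal 20 and the hypothalamus library of animal 28, both from males with large social network size. Values that these libraries move by much are also given without them.

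The genes lie on different chromosomes or far apart, in the GRCm38 build. Ttr is at chr18:20665280-20674321, Folr1 at chr7:101858331-101870788, Kl at chr5:150952607-150993817 and Steap1 at chr5:5736317-5749326. Aqp1 is at chr6:55336432-55348555, Slc4a5 at chr6:83219828-83304945 and Clic6 at chr16:92485736-92541243. Prlr is at chr15:10177238-10349180, Enpp2 at chr15:54838901-54952892 and Sostdc1 at chr12:36314139-36318452. All are protein-coding. Folr1 overlaps Anapc15 and Enpp2 overlaps Gm26684 on the opposite strand, and since it is not stated whether the counting used strand, reads of such partners cannot be told apart. Median counts per library were 18 for Folr1 and 206 for Anapc15, so Folr1 is the more uncertain. On the same strand, Clic6 overlaps 2410124H12Rik (median counts 550 and 6) and Prlr overlaps Gm21973 (301 and 0).

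Ttr encodes transthyretin, which carries thyroxine and retinol-binding protein in cerebrospinal fluid, and its difference between hippocampus and prefrontal cortex was the largest of the 10 genes. Its level was 256, 732 and 1433 CPM (counts-per-million of a library; lowest, median and highest of 29 libraries) in the hippocampus, 0.980, 6.02 and 273 in the hypothalamus (28 libraries) and 0.170, 0.954 and 407 in the prefrontal cortex (29 libraries). Only the libraries of animals 28 and 20 reached into the hippocampal range. The next highest were at 50.3 CPM in the hypothalamus and 11.4 CPM in the prefrontal cortex. On the log2 scale of the edgeR fit over all 12 groups, hippocampus exceeded prefrontal cortex by 7.90 ± 0.51 (SE; adjusted p = 2.39e-24), and hypothalamus exceeded prefrontal cortex by 2.09 ± 0.46 (adjusted p = 4.1e-05). Without the libraries of animals 20 and 28 these differences were 8.97 and 2.66. In bulk tissue, fewer cells of a type and less RNA per cell cannot be told apart.

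**Figure D1:**
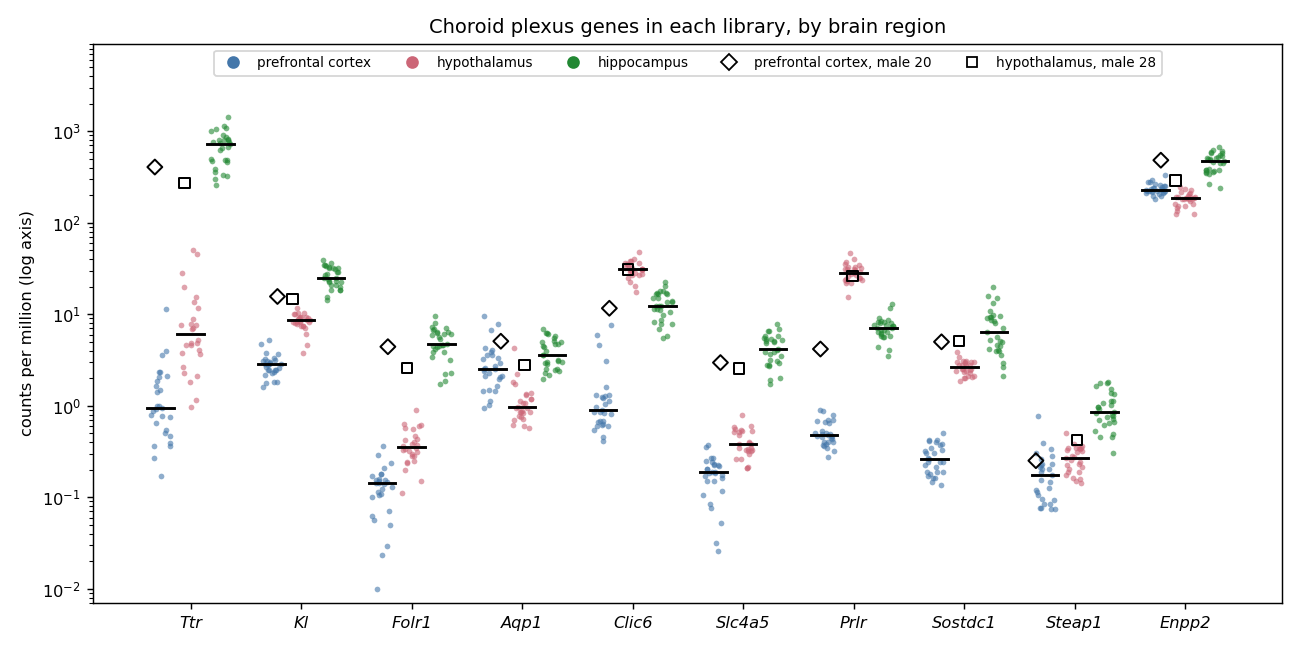
CPM (log axis) of the 10 genes in each of 86 libraries, grouped by gene and coloured by region, with horizontal bars at the medians. Open diamonds mark the prefrontal cortex library of animal 20 and open squares the hypothalamus library of animal 28, and the single library with 0 Folr1 counts is drawn at 0.01 CPM.

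Folr1, the folate receptor that moves folate into cerebrospinal fluid, followed the same order of regions. It was at 1.71, 4.79 and 9.48 CPM in the hippocampus, 0.110, 0.355 and 2.60 CPM in the hypothalamus, and 0, 0.143 and 4.42 CPM in the prefrontal cortex. The highest hypothalamic and prefrontal values were again those of animals 28 and 20, and the next highest, 0.891 and 0.363 CPM, lay below every hippocampal library. Hippocampus exceeded prefrontal cortex by 4.64 ± 0.27 on the log2 scale (edgeR, adjusted p = 1.67e-26), a 24.9-fold difference. The prefrontal library with no Folr1 read, from a female with large social network size (animal 17), allows a level of up to 0.0685 CPM (3 counts, counting error only).

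Among the channels and transporters, Slc4a5, a sodium bicarbonate cotransporter of the plexus epithelium, kept the order seen for Ttr, whereas Aqp1 and Clic6 did not. Slc4a5 was at 1.74, 4.21 and 7.92 CPM in the hippocampus, 0.208, 0.386 and 2.55 CPM in the hypothalamus and 0.0256, 0.188 and 2.96 CPM in the prefrontal cortex. Clic6, of the chloride intracellular channel family, was at 17.7, 30.9 and 47.7 CPM in the hypothalamus, 5.53, 12.4 and 22.6 CPM in the hippocampus and 0.409, 0.899 and 11.6 CPM in the prefrontal cortex. The hypothalamus therefore held the most Clic6, with partial overlap between hypothalamus and hippocampus, and the difference was 1.28 ± 0.18 on the log2 scale (edgeR, adjusted p = 1.3e-09). Aqp1, the water channel of the apical membrane, was at 1.94, 3.60 and 6.90 CPM in the hippocampus, 0.934, 2.54 and 9.54 CPM in the prefrontal cortex and 0.575, 0.961 and 4.26 CPM in the hypothalamus. All 3 ranges of Aqp1 overlapped. Aqp1 was lower in the hypothalamus than in the prefrontal cortex by 1.32 ± 0.19 (log2 difference -1.32, adjusted p = 2.03e-09), and its difference between hippocampus and prefrontal cortex, 0.38 ± 0.18, did not pass (adjusted p = 0.0604). That call changed under 2 alternatives, at 0.47 (adjusted p = 0.0158) with animal as a block, since animals gave all regions, and at 0.40 (adjusted p = 0.0448) without the libraries of animals 20 and 28.

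Of the receptors and the enzyme, Kl and Enpp2 were highest in the hippocampus and Prlr in the hypothalamus. Kl encodes klotho, the co-receptor of the hormone FGF23, and was at 14.5, 25.2 and 39.5 CPM in the hippocampus, 3.79, 8.56 and 14.7 CPM in the hypothalamus and 1.59, 2.86 and 15.6 CPM in the prefrontal cortex. Prlr, the prolactin receptor, which hypothalamic neurons also use, was at 15.6, 28.5 and 46.3 CPM in the hypothalamus, 3.47, 7.12 and 12.97 CPM in the hippocampus and 0.277, 0.474 and 4.17 CPM in the prefrontal cortex. The hypothalamic and hippocampal ranges of Prlr did not overlap, and the hypothalamus exceeded the prefrontal cortex 47.4-fold (log2 difference 5.57 ± 0.15, edgeR adjusted p = 4.15e-49). Enpp2 encodes autotaxin, which makes lysophosphatidic acid and is also made by oligodendrocytes. It was at 241, 477 and 668 CPM in the hippocampus, 183, 231 and 483 CPM in the prefrontal cortex and 124, 186 and 290 CPM in the hypothalamus. Enpp2 was thus at 124 CPM or more in every library, and its differences between regions, 0.91 ± 0.08 for hippocampus against prefrontal cortex and -0.39 ± 0.08 for hypothalamus against prefrontal cortex, were small beside those of Ttr (edgeR, adjusted p = 8.59e-17 and 1.53e-05).

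Sostdc1, a secreted antagonist of BMP and Wnt signalling, was at 2.12, 6.36 and 19.98 CPM in the hippocampus, 1.88, 2.64 and 5.08 CPM in the hypothalamus and 0.136, 0.265 and 4.998 CPM in the prefrontal cortex. Steap1, of the STEAP family of membrane proteins, was at 0.306, 0.857 and 1.83 CPM in the hippocampus, against 0.144, 0.270 and 0.499 CPM in the hypothalamus and 0.0748, 0.176 and 0.768 CPM in the prefrontal cortex. Both passed the test in every contrast of regions. With median counts of 7 for Steap1, 8 for Slc4a5 and 6 for Folr1 in the prefrontal cortex, values of these genes there rest on few reads.

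Per kilobase of exon, the order of the genes changed with the region. In the hippocampus Ttr led with a median of 617 CPM per kb, followed by Enpp2 with 82.6, Sostdc1 with 3.57 and Clic6 with 3.17, and Prlr was last with 0.464. In the hypothalamus Enpp2 led with 32.2 CPM per kb, followed by Clic6 with 7.90, Ttr with 5.08 and Prlr with 1.86. The prefrontal cortex had Enpp2 at 39.9 CPM per kb, and the other 9 genes were below 1 CPM per kb, from Aqp1 with 0.968 and Ttr with 0.804 down to Prlr with 0.0309.

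In all, 9 of the 10 genes were higher in the hippocampus than in the prefrontal cortex and none was lower, beside 63.3% of all 19873 genes tested that differed, 32.8% higher and 30.5% lower. At an unadjusted p under 0.05, all 10 differed, beside 66.3% of all genes. Their median log2 difference was 3.28, against 0.01 over all genes. Between hypothalamus and prefrontal cortex, all 10 differed, 8 higher and 2 lower (Aqp1 and Enpp2), beside 75.3% of all genes, of which 39.9% of those tested were higher and 35.3% lower, with a median of 1.24 for the 10 genes and 0.03 over all. At an unadjusted p under 0.05 were 76.6% of all genes in that contrast and 71.0% between hypothalamus and hippocampus. Between hypothalamus and hippocampus, all 10 differed, with Clic6 and Prlr higher and 8 lower in the hypothalamus, beside 68.8% of all genes (35.2% higher and 33.7% lower), and their median was -1.66. Of 29 other choroid plexus genes, 26 were higher and 1 was lower in the hippocampus than in the prefrontal cortex, and 5 were higher and 18 lower in the hypothalamus than in the hippocampus. Ependymal cells line the same ventricles, and 11 of 11 of their genes tested were higher in the hippocampus than in the prefrontal cortex (median log2 difference 2.11), the direction of the 9 genes, and higher in the hypothalamus than in either other region. Oligodendrocyte genes, 10 of 10, were higher than in the prefrontal cortex in both other regions. In the hippocampus against the prefrontal cortex, 6 of 12 fibroblast and meningeal genes were higher and 2 lower, 1 of 10 endothelial genes was higher and 7 lower, and 5 of 6 neuronal and 2 of 4 blood genes were lower. The part of these cell types in the levels of the 10 genes was not tested.

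Within a region, the spread of Ttr over libraries was among the widest of all genes. Its log2 CPM had an SD of 0.65 in the hippocampus, 1.74 in the hypothalamus and 2.05 in the prefrontal cortex, and the median gene had 0.18, 0.20 and 0.21. It exceeded the SD of 90.2%, 99.3% and 99.5% of genes tested. Without the libraries of animals 28 and 20 it was 1.43 and 1.30, above 98.9% and 98.5% of genes in the hypothalamus and prefrontal cortex. Prlr and Clic6 were steadiest where they were highest, with an SD of 0.32 and 0.29 in the hypothalamus. In the hippocampus the SD of the 10 genes ran from 0.37 for Enpp2 to 0.81 for Sostdc1, and animal 4, a female with small social network size, had the lowest level of every one of them but Clic6. The same library had the lowest summed oligodendrocyte markers of the region, at 3991 CPM against 4014 in the next, and their part was not tested.

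Animal 20 stood apart in its prefrontal cortex library. Ttr was at 407 CPM (16192 counts), 436 times the median of the other 28 libraries. The same library was the highest of 29 for 8 of the 10 genes, Aqp1 and Steap1 being the exceptions. Folr1 was 31.3 times, Sostdc1 19.6 times, Slc4a5 15.8 times, Clic6 13.3 times and Prlr 8.86 times the median of the others, whereas Kl was 5.53 times and Enpp2 2.11 times. These 8 genes were above the whole range of the other libraries of their region. It also ranked highest for 16 of 29 other choroid plexus genes. The share of all genes that were highest in this library was not computed. The summed ependymal markers were highest in this library too, at 26.9 CPM against 22.8 in the next, although Ccdc153, Tmem212 and Mia of that list had medians below 0.1 CPM in the region, and the summed oligodendrocyte markers were the second highest, at 4335 CPM. The summed hippocampal markers were the lowest of the 29 libraries, at 227 CPM. The part of these cell types in the levels was not tested.

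In the hypothalamus library of animal 28, fewer of the genes were high. Ttr was at 273 CPM, 52.3 times the median of the other 27, Folr1 7.49 times, Slc4a5 6.62 times, Sostdc1 2.02 times, Kl 1.72 times and Enpp2 1.57 times, and these 6 genes were the highest of their region. Clic6 and Prlr were near the median, at 1.0004 and 0.908 times the median, with ranks 14 and 19 of 28. Among the other choroid plexus genes, 11 of 29 were highest in this library, but the sum of the 29 genes, 678 CPM, ranked 10 of 28. The share of all genes that were highest was not computed for this library. Its summed ependymal markers, 108 CPM, ranked 12 of 28. Its summed endothelial markers were the highest of 28, at 458.5 CPM against 454 in the next, and its fibroblast and meningeal markers ranked 2, at 245 CPM. The part of these cell types was not tested.

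In neither animal did the high level extend to the other regions. Animal 20 had 0.980 CPM of Ttr in the hypothalamus, the lowest of that region, and 492.8 CPM in the hippocampus. Animal 28 had 0.777 CPM in the prefrontal cortex and 386 CPM in the hippocampus. Both hippocampal values were below the median of 732 CPM.

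The amounts by which the other genes exceeded their usual level in these libraries can be set beside the hippocampus, per 100 CPM of Ttr. Over the 29 hippocampal libraries, the slope on Ttr was 1.77 ± 0.27 (SE) CPM of Kl, 0.60 ± 0.05 of Folr1, 0.395 ± 0.059 of Aqp1, 0.438 ± 0.065 of Slc4a5, 1.19 ± 0.17 of Sostdc1 and 34.4 ± 3.0 of Enpp2. The excess in animal 20 was 3.16 CPM of Kl, 1.05 of Folr1, 0.629 of Aqp1, 0.684 of Slc4a5, 1.17 of Sostdc1 and 62.6 of Enpp2. In animal 28 it was 2.30 CPM of Kl, 0.842 of Folr1, 0.685 of Aqp1, 0.810 of Slc4a5, 0.959 of Sostdc1 and 39.4 of Enpp2. The single libraries carry no error of their own, and apart from Sostdc1 their values for these genes were above the hippocampal slopes. Clic6 and Prlr separated them: 2.65 and 0.912 CPM per 100 CPM of Ttr in animal 20, but 0.0043 and -0.993 in animal 28, where the slopes were 1.16 ± 0.19 and 0.43 ± 0.10. Steap1 was below its slope of 0.120 ± 0.016 in both, at 0.0210 and 0.0577.

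**Figure D2:**
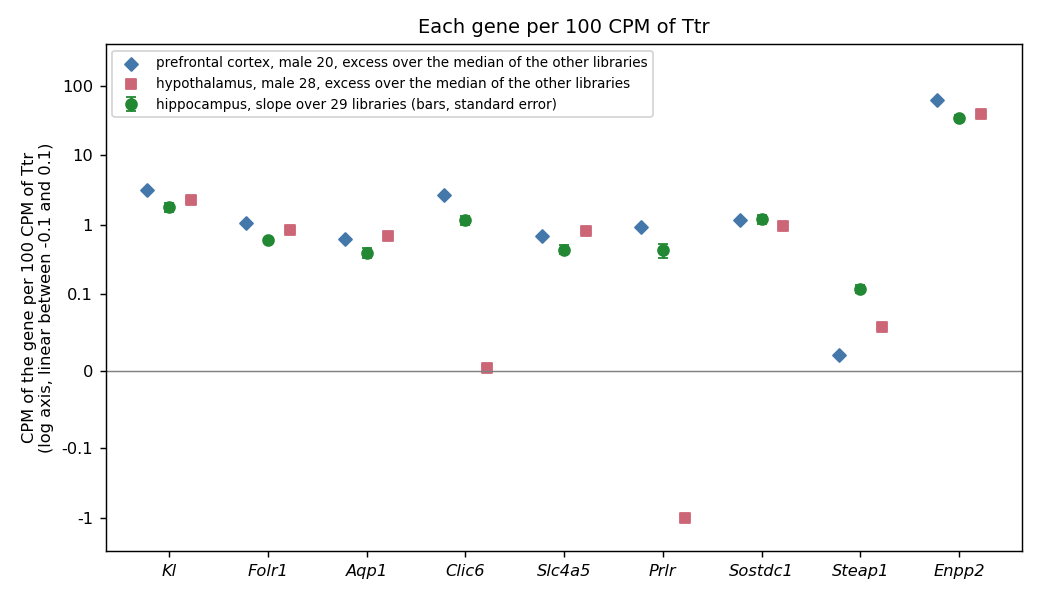
CPM of each gene per 100 CPM of Ttr (log axis, linear between -0.1 and 0.1). Circles are slopes over 29 hippocampal libraries with standard errors, diamonds the excess in the prefrontal cortex library of animal 20 and squares that in the hypothalamus library of animal 28; Clic6 and Prlr of animal 28 sit at 0.0043 and -0.993.

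In the hippocampus the 10 genes rose and fell together from library to library. All 9 other genes were correlated with Ttr (log2 CPM, 29 libraries), from Pearson's r = 0.69 for Prlr (rho = 0.53) to 0.92 for Folr1 (rho = 0.92) and 0.93 for Enpp2 (rho = 0.91). Their permutation p was 1e-05, the smallest that 100000 permutations can give, for 8 genes (adjusted p = 3.38e-05 over 27 relations), and 4e-05 for Prlr (adjusted p = 0.000108), and by rho the p of Prlr was 0.00378 (adjusted p = 0.0102). Without the 2 libraries farthest from the median of Ttr, r stayed between 0.56 for Prlr and 0.92 for Enpp2, and with the means of the groups of sex and social network size removed it was between 0.75 and 0.96. Of 18588 other genes, 0.231% had an r of at least 0.7 with Ttr, and 8 of the 9 did. Genes of the set were also correlated with each other: among the 36 pairs of genes other than Ttr, added after the relations with Ttr were seen, the median r was 0.77, 32 pairs reached 0.7 and all 36 passed (adjusted over 108 relations). The lowest were Prlr with Steap1 at 0.47 and Prlr with Sostdc1 at 0.47, which were at 0.27 and 0.25 without the 2 farthest libraries and did not pass by rho (adjusted p = 0.0608 and 0.106). Pairs of genes outside the set were not computed in any region, so no share over all genes stands beside these counts. Among markers of other cell types, 11 ependymal genes had a median r of 0.64 with Ttr in the hippocampus, and 2 of them reached 0.7, beside a median of 0.63 for 29 other choroid plexus genes. The median was 0.35 for 10 oligodendrocyte genes, 0.088 for 6 neuronal, 0.029 for 4 blood, -0.048 for 10 endothelial and -0.13 for 12 fibroblast and meningeal genes. The part of these cells in the correlations was not tested.

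**Figure D3:**
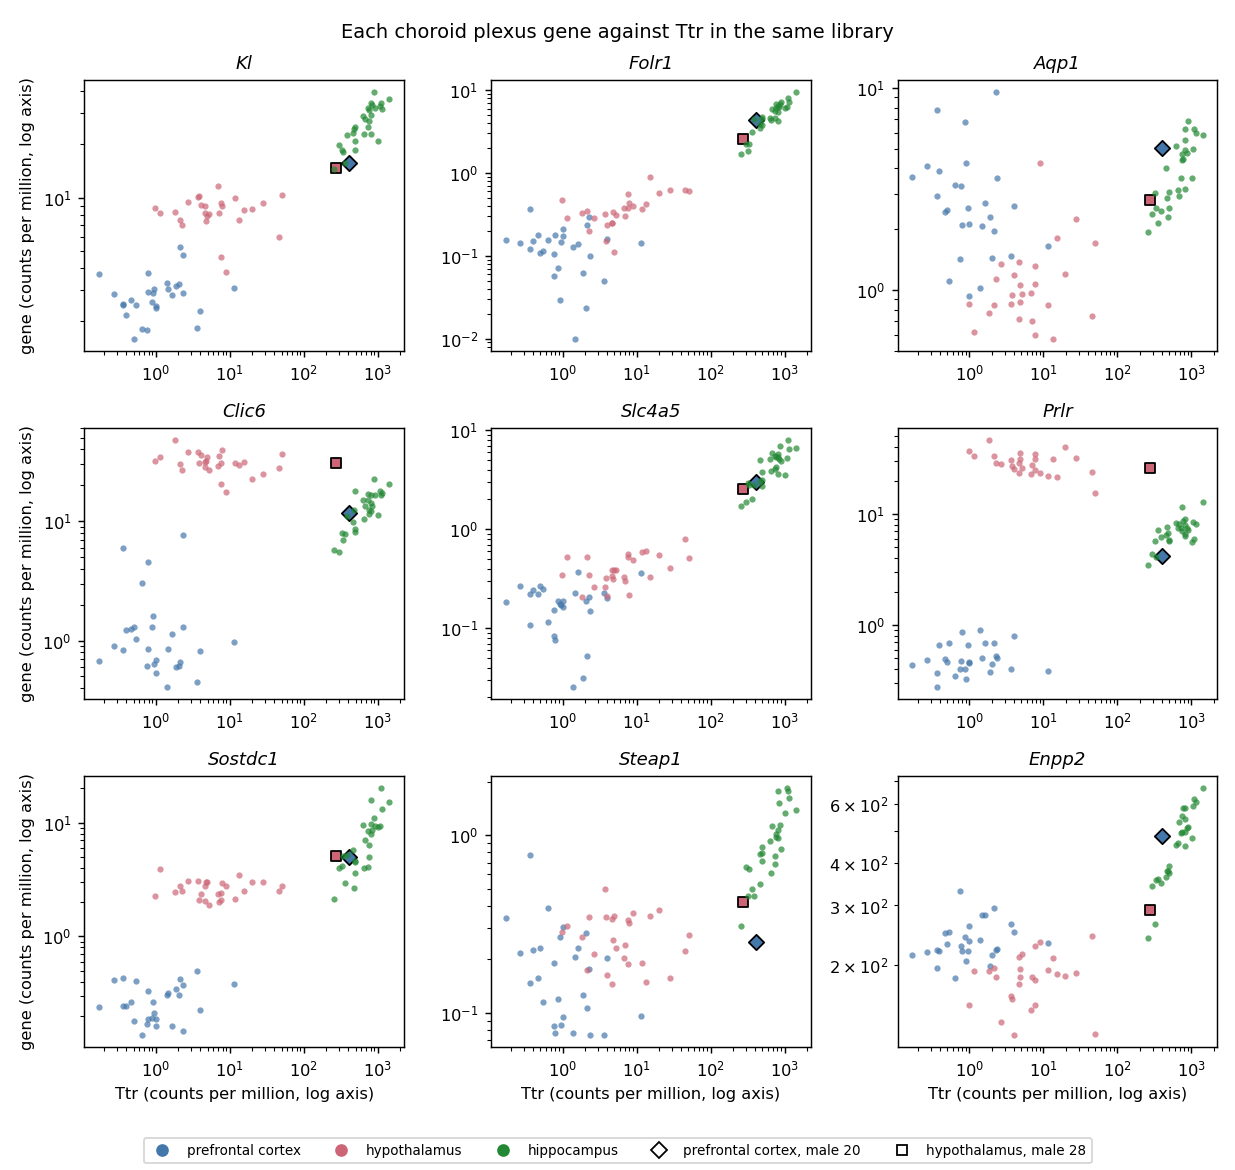
Each of 9 genes (y axis) against Ttr (x axis) in the same library, both in CPM on log axes, coloured by region. The hippocampal libraries form a rising band in every panel, the diamond (prefrontal cortex, animal 20) and the square (hypothalamus, animal 28) lie in or next to the lower end of that band for Kl, Folr1, Slc4a5 and Sostdc1, and the hypothalamic libraries lie above it for Clic6 and Prlr.

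Outside the set, the genes most like Ttr over the 29 hippocampal libraries were Calml4 (r = 0.913), Cldn2 (0.908), 1500015O10Rik (0.905), Kcne2 (0.900), Col8a2 (0.864), Prr32 (0.844), F5 (0.840) and Wfdc2 (0.837). Of these, Cldn2 encodes a claudin of tight junctions, Kcne2 a potassium channel subunit and F5 coagulation factor V, and 5 of the 8 were on the list of other choroid plexus genes. In the hypothalamus the most alike were Dnaaf2 (0.754), Gpr137 (0.728), Hhex (0.643), Pax7 (0.642), Gdpgp1 (0.632), Ptgfrn (0.628), Mfsd5 (0.624) and Glb1 (0.621), and in the prefrontal cortex Mfrp (0.668), St7l (0.630), Cdk19 (0.587), Gm15835 (0.585), Tor4a (0.580), Zfp125 (0.568), Zmpste24 (0.565) and Carhsp1 (0.562). Only Mfrp among these 16 was on a list of choroid plexus genes, and its r was 0.21 without animal 20. These r describe libraries that share tissue composition and depth, and carry no test.

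Sequence before the start of 5 of the 10 genes was examined, because the genes varied together in the hippocampus. Ttr, Folr1, Clic6, Sostdc1 and Enpp2 were not examined, so the counts below do not cover them. RefSeq windows in GRCm38.p6 (250 bases before to 50 after a start) were used, with 3 starts for Prlr. The letters TAATCC, or GGATTA for the other strand, which OTX2 and related homeodomain proteins bind, were found in 0 of these 7 windows and in 7.06% of 32851 windows of the same 300 bases in the table. The windows differed in base composition. Kl, Aqp1 and Prlr are shown for that contrast, since the windows of Steap1 and Slc4a5 overlap annotated exons. The 250 bases before the start held 13 CG pairs and 66.8% GC for Kl, 5 and 62.0% for Aqp1, and 6 and 48.0% for the first start of Prlr, where the median window had 6 CG pairs and 52.4% GC. The sequences run 5′ to 3′ on the plus strand, with CG pairs in capitals, and come from chr5:150952357-150952606 for Kl, chr6:55336049-55336298 for Aqp1 and chr15:10176988-10177237 for Prlr.
Kl: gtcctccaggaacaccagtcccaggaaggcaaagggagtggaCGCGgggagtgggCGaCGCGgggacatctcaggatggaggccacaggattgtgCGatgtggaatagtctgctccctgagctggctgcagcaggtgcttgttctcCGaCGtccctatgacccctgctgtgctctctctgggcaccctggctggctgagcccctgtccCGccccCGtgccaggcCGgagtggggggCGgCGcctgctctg
Aqp1: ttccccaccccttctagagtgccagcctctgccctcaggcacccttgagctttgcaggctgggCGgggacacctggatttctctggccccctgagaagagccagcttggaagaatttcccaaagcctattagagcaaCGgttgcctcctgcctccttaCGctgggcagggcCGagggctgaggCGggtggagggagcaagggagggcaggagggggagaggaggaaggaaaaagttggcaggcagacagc
Prlr: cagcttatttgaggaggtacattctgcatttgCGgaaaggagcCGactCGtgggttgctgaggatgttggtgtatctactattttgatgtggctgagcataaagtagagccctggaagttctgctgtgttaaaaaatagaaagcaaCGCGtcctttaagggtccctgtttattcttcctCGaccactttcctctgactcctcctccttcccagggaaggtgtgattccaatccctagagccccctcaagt

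In the hypothalamus the set split. Folr1 (r = 0.74, rho = 0.71, 28 libraries; permutation p = 2e-05, adjusted p = 6e-05) and Slc4a5 (r = 0.69, rho = 0.53; p = 0.00025, adjusted p = 0.000614) followed Ttr, and Aqp1 did so more loosely (r = 0.48, rho = 0.35; p = 0.0117, adjusted p = 0.0198). Prlr ran against Ttr (r = -0.45, rho = -0.43; p = 0.0194, adjusted p = 0.0309). Without the 2 libraries farthest from the median of Ttr, Folr1 alone passed by r, at r = 0.54, and Slc4a5 was at 0.45, Aqp1 at 0.26 and Prlr at -0.36, and without animal 28 alone 3 genes passed. By rho, 3 genes passed with all libraries, 3 without the 2 farthest and 2 without animal 28. In the hypothalamus, 0.0107% of 18743 other genes had an r of at least 0.7 with Ttr. Of the 36 pairs without Ttr, 5 passed by r, and they differed in sign. Kl rose with Clic6 (r = 0.57, adjusted p = 0.00587). Slc4a5 rose with Enpp2 (r = 0.68, adjusted p = 0.000286), with Folr1 (r = 0.66, adjusted p = 0.00341) and with Sostdc1 (r = 0.48, adjusted p = 0.0317). Clic6 fell where Enpp2 rose (r = -0.49, adjusted p = 0.0213). Without animal 28, r of Slc4a5 was 0.56 with Enpp2, 0.35 with Folr1 and 0.10 with Sostdc1, and that of Kl with Clic6 was 0.63, but 0.14 without the 2 libraries farthest from the median. By rho, Kl with Clic6 (rho = 0.42, adjusted permutation p = 0.0725) and Slc4a5 with Sostdc1 (rho = 0.18, adjusted permutation p = 0.541) did not pass. Kl with Enpp2 (rho = -0.59, adjusted permutation p = 0.00365) and Clic6 with Slc4a5 (rho = -0.60, adjusted permutation p = 0.00241) passed by rho only. Their r was -0.70 and -0.59 without animal 28, but -0.17 and -0.36 without the 2 libraries farthest from the median. The median r over the pairs was 0.11, and pairs of genes outside the set were not computed. The library of animal 6, from a male of the small group, held the lowest Kl and Clic6 and the highest Aqp1 of the hypothalamus, together with the highest summed oligodendrocyte markers, 7561 CPM, and the lowest summed ependymal markers, 65.4 CPM.

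Correlations with Ttr in the prefrontal cortex rested on 1 library. With all 29 libraries, 5 of 9 genes passed: Sostdc1 (r = 0.72, rho = 0.19), Kl (0.68, 0.35), Prlr (0.68, 0.29), Enpp2 (0.68, 0.43) and Slc4a5 (0.52, 0.047), with adjusted p between 0.00772 and 0.0313. Without the library of animal 20, no gene passed, and these r were between -0.022 and 0.26. No other gene of 18443 reached an r of 0.7 (0.0%). Of the 36 pairs without Ttr, 12 passed with all libraries, but the median r fell from 0.41 to 0.025 without that library. Here too, pairs of genes outside the set were not computed. Of the 12, the pair of Aqp1 and Clic6 had the highest r without it. Their r was 0.68 (rho = 0.70, permutation p = 2e-05, adjusted p = 7.2e-05), 0.68 without animal 20 and 0.52 without the 2 libraries farthest from the median. Aqp1 with Steap1 (r = 0.42, adjusted p = 0.0464) was at 0.41 and Folr1 with Clic6 (r = 0.58, adjusted p = 0.00277) at 0.35 without animal 20, and the other 9 pairs were at 0.30 or below. The female with small social network size numbered 8 had the most Aqp1 of the region, 9.54 CPM, and the second most Clic6, 7.73 CPM, beside 2.31 CPM of Ttr. Over the region, r with Ttr was 0.0045 for Aqp1 and 0.32 for Clic6, which did not pass (adjusted p = 0.981 and 0.111).

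No relation passed between the level of a gene in 1 region and its level in another region of the same animal, over 30 relations tested. Prlr in the prefrontal cortex and hypothalamus had the lowest p (r = 0.42, rho = 0.39, 28 animals; permutation p = 0.0349, adjusted p = 0.880), and no other relation had an unadjusted p under 0.05 by r. By rho, Prlr in the prefrontal cortex and hippocampus was also under 0.05 (rho = 0.38, r = 0.18, 29 animals; permutation p = 0.0403, adjusted p = 0.641).

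The question of the study was whether animals with small and large social network size differ in these regions, and in none of the 6 comparisons did any of the 10 genes pass. In females, the prefrontal cortex gave 0 of 7 genes tested, since Folr1, Slc4a5 and Steap1 fell below the count filter (0.0113% of 17710 genes were called). Ttr was at 0.366, 0.913 and 2.31 CPM in small and 0.170, 0.759 and 1.48 CPM in large, with a log2 difference (small minus large) of 0.69 ± 0.49 (SE; edgeR adjusted p = 0.585). The groups overlapped. Clic6 was at 0.596, 1.25 and 7.73 CPM in small and 0.537, 0.679 and 1.22 CPM in large, and 4 of 7 small females were above every large one. Its difference was 1.40 ± 0.48 (edgeR adjusted p = 0.462; exact permutation p of the mean CPM = 0.0361), and 0.53 without animal 8. It was the 1 gene of 7 with an unadjusted p under 0.05, beside 9.59% of all genes.

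In the hypothalamus of females, 0 of 10 genes passed (0.00552% of 18129 genes were called), and 3 had an unadjusted p under 0.05, beside 7.39% of all genes. All 3 were higher in small, and as they varied together over the hypothalamic libraries, they are not 3 separate observations. Slc4a5 was at 0.332, 0.523 and 0.795 CPM in small and 0.214, 0.317 and 0.385 CPM in large, and 6 of 7 small females were above every large one. Its log2 difference was 0.81 ± 0.20 (edgeR adjusted p = 0.379; exact permutation p of the mean CPM = 0.00233). Ttr was at 1.14, 7.64 and 50.3 CPM in small and 2.26, 4.62 and 7.82 CPM in large, and the small group enclosed the large one. The highest values of Ttr belonged to animals 4 and 23, with 50.3 and 45.8 CPM, and the difference was 2.07 ± 0.65 (edgeR adjusted p = 0.526; exact permutation p of the mean CPM = 0.0833). Folr1 was at 0.285, 0.564 and 0.891 CPM in small and 0.110, 0.285 and 0.429 CPM in large (0.96 ± 0.29; edgeR adjusted p = 0.524; exact permutation p of the mean CPM = 0.0122). The other 7 differed by between -0.32 and 0.19. Of 10 oligodendrocyte genes, 5 also had an unadjusted p under 0.05, all higher in small, with a median difference of 0.25, and their part was not tested.

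In the hippocampus of females, the region with the highest medians of all the genes but Clic6 and Prlr, 0 of 10 passed (0.0% of 17800 genes were called). Ttr was at 256, 808 and 1145 CPM in small and 297, 812 and 1433 CPM in large, and the difference of -0.16 ± 0.35 was well within the spread of the animals (edgeR adjusted p = 0.888). All 10 differences were negative, with a median of -0.22 against 0.01 over all genes, and only Prlr had an unadjusted p under 0.05, beside 12.2% of all genes. Prlr was at 3.47, 5.76 and 8.22 CPM in small and 4.35, 8.01 and 12.97 CPM in large, overlapping over most of the range (-0.46 ± 0.20; edgeR adjusted p = 0.372). As the genes varied together over these libraries, their common sign is not 10 separate observations.

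**Figure D4:**
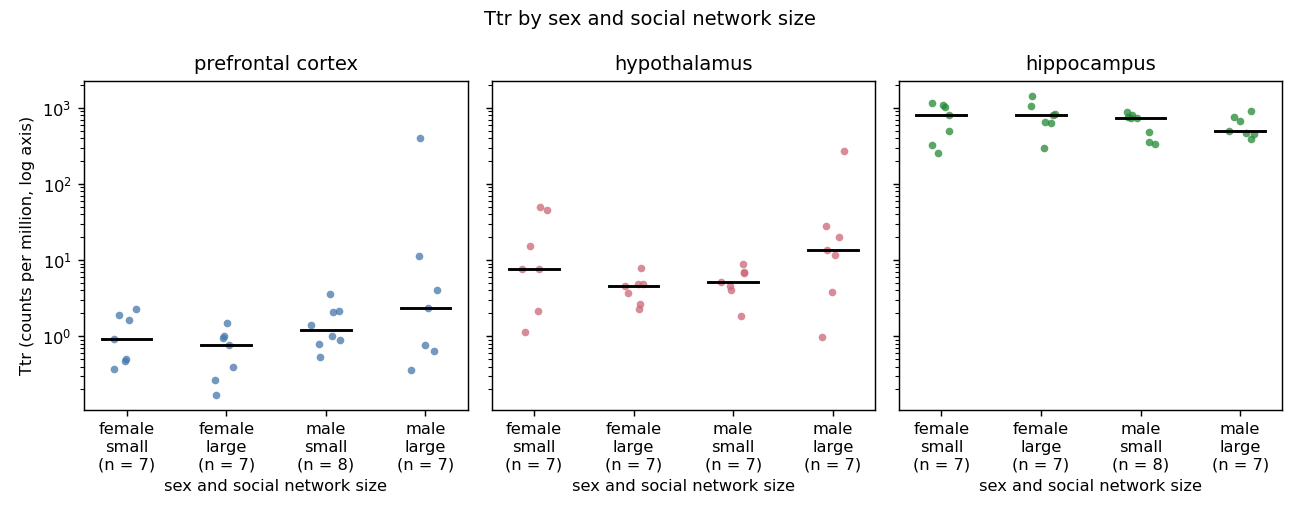
Ttr in CPM (log axis) in each library, by region, sex and social network size, with bars at the group medians and the number of animals under each group. The single high points of males with large social network size are animal 20 in the prefrontal cortex (407 CPM) and animal 28 in the hypothalamus (273 CPM).

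In males, the largest differences rested on animals 20 and 28. For the prefrontal cortex, 0 of 7 genes passed (0.0% of 17781 genes were called) and 3 had an unadjusted p under 0.05, beside 2.52% of all genes. Ttr was at 0.538, 1.20 and 3.63 CPM in small and 0.363, 2.35 and 407 CPM in large, and apart from animal 20 the highest was animal 11 at 11.4 CPM. The log2 difference was -5.33 ± 1.35 (edgeR adjusted p = 0.99999; exact permutation p of the mean CPM = 0.0915), and -1.06 without animal 20. DESeq2, which replaces counts far from the rest of a group, gave -0.96. The others with a low p were Clic6 (-1.54 ± 0.64) and Sostdc1 (-1.53 ± 0.68), and without animal 20 these became -0.84 and 0.19.

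In the hypothalamus of males, 0 of 10 passed (0.0% of 18053 genes were called). Ttr, Slc4a5 and Folr1, the same 3 genes as in females, had an unadjusted p under 0.05, beside 2.90% of all genes. They were now lower in small, and here too they are not 3 separate observations. Ttr was at 1.84, 5.21 and 8.98 CPM in small and 0.980, 13.5 and 273 CPM in large. In 5 of 7 large males Ttr was above every small one, and in animal 20 it was below every small one. The difference was -3.18 ± 0.92 (edgeR adjusted p = 0.99958; exact permutation p of the mean CPM = 0.042), and -1.22 without animal 28. Slc4a5 (-1.19 ± 0.45) and Folr1 (-1.23 ± 0.49) went to -0.48 and -0.45 without it. In the hippocampus of males, 0 of 10 passed (0.0% of 17950 genes were called) and 0 had an unadjusted p under 0.05, beside 3.88% of all genes. Ttr was at 333, 736 and 873 CPM in small and 386, 492.8 and 901 CPM in large (0.11 ± 0.22; edgeR adjusted p = 0.999), and Clic6, the gene with the lowest p, differed by 0.27 ± 0.22 (edgeR adjusted p = 0.999). Both genes overlapped between the groups.

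**Figure D5:**
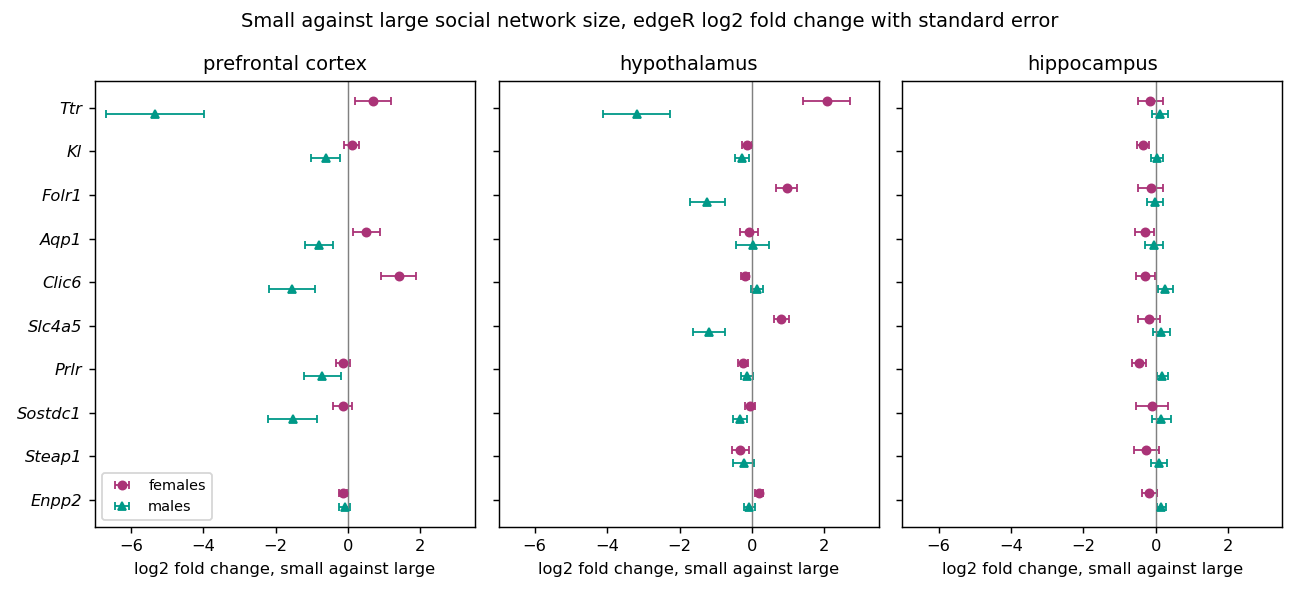
Log2 differences (small minus large) of the 10 genes with standard errors from edgeR, for females (circles) and males (triangles) in each region, with genes below the count filter left blank. The largest, for Ttr of males in the prefrontal cortex and hypothalamus, are -5.33 and -3.18, and in the hippocampus every difference lies between -0.46 and 0.27.

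DESeq2 called 0 of the 10 genes in each of these 6 comparisons, with 1, 3 and 2 at an unadjusted p under 0.05 in females and 2, 3 and 0 in males (prefrontal cortex, hypothalamus, hippocampus). Of all genes, DESeq2 called 74, 43 and 97 in females and 2, 1 and 0 in males. Its unadjusted p was under 0.05 for 7.82%, 5.89% and 9.38% of all genes in females and 2.52%, 2.76% and 3.23% in males. In exact two-sided permutation tests of the difference in mean CPM, 6 of 60 had a p under 0.05 and 0 passed after adjustment (lowest adjusted p = 0.14), where 7 animals against 7 can reach 0.000583. The exact tests covered the 10 genes only, so no share over all genes stands beside them.

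Whether females and males differed in the effect of social network size was tested as an interaction (female minus male difference). In the hypothalamus no gene passed (0.0% of 18753 genes were called), but Ttr had the second lowest p of all genes, at 5.25 ± 1.19 (edgeR adjusted p = 0.775), with Slc4a5 at 2.01 ± 0.51 and Folr1 at 2.19 ± 0.59 at ranks 8 and 21. They were 3 of 10 genes with an unadjusted p under 0.05, beside 6.14% of all genes, but they varied together over these libraries. Without animal 28 the difference in Ttr was 3.29, and Slc4a5 had the lowest p of the 10 (edgeR adjusted p = 0.597). With all libraries DESeq2 gave Ttr an adjusted p of 0.0956. Ttr differed by 6.03 ± 1.66 in the prefrontal cortex (edgeR adjusted p = 0.454) and by 1.76 ± 0.86 without animal 20. There 0 of 9 genes passed (0.0% of 18452 genes were called) and 4 had an unadjusted p under 0.05, beside 4.17% of all genes. Without animal 20 these fell to 2, Clic6 (2.25 ± 0.80) and Aqp1 (1.24), and Clic6 in place of Ttr had the lowest p. In the hippocampus 0 of 10 passed (0.0% of 18598 genes were called) and 1, Prlr, had an unadjusted p under 0.05, beside 7.37% of all genes, with differences between -0.63 for Prlr and -0.13 for Folr1.

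Over both sexes together, 0 genes passed in any region, where 0.0163% of all genes were called in the prefrontal cortex and 0.0% in each of the other regions. At an unadjusted p under 0.05 were Ttr and Steap1 of 9 genes in the prefrontal cortex (-2.31 ± 0.84 and -0.70 ± 0.29, edgeR adjusted p = 0.575 for both), beside 8.48% of all genes, and 0 of 10 in the hypothalamus and hippocampus, beside 3.52% and 9.78%. Without animal 20, Ttr was at -0.19 ± 0.43 and Steap1, at -0.71 ± 0.30, was the 1 gene of 9 left under 0.05. DESeq2 called 0 of the genes in each region, with 1, 0 and 0 at an unadjusted p under 0.05. Of all genes it called 23, 6 and 12, with 6.52%, 3.03% and 7.37% at an unadjusted p under 0.05. Hippocampal differences were between -0.18 for Aqp1 and 0.03 for Sostdc1.

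Females and males differed in none of the 10 genes either (0.0976%, 0.117% and 0.102% of all genes were called in the prefrontal cortex, hypothalamus and hippocampus). At an unadjusted p under 0.05 were 3 of 9, 0 of 10 and 2 of 10 genes, beside 4.98%, 6.79% and 5.99% of all genes, and DESeq2 called 0 with 2, 0 and 2 at that level. Of all genes, DESeq2 called 28, 40 and 30, with 4.02%, 5.25% and 4.8% at that level. Ttr in the prefrontal cortex had the lowest edgeR p of the 10 genes, with females lower by 3.46 ± 0.83 (log2 difference -3.46, edgeR adjusted p = 0.174). It was at -1.31 without animal 20, when it was the 1 gene of 9 under 0.05. Sostdc1 (-1.21 ± 0.42) and Prlr (-0.65) were at -0.35 and -0.11 without that library. In the hippocampus, Sostdc1 (0.62 ± 0.27) and Steap1 (0.51 ± 0.21) had the lowest p, with higher levels in females (edgeR adjusted p = 0.811 for both).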

How the data were processed

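RNA of 3 brain regions of wild mice was sequenced. The authors cleaned paired-end reads, aligned them with STAR to GRCm38 (mm10) and counted them with HTSeq, and the raw read counts per gene were deposited without normalization. The strand setting and the annotation release are not given in the sources used here. The submitters' processing notes also name CASAVA 1.8.2 and DESeq2.

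The 10 genes and the marker lists were chosen with earlier results of these data known. All 10 were named. Ttr and the gene with the lowest p were given in full in each comparison of small with large, and the 8 genes most correlated with Ttr in each region were named. Cell lists used were other choroid plexus, ependymal, oligodendrocyte, fibroblast and meningeal, endothelial, neuronal, blood and region markers.

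Counts were fitted with edgeR 4.0.16 in R 4.3.3 (quasi-likelihood test, TMM scaling, filterByExpr settings 10 for the count, 15 for the total and 0.7 for the proportion), with Benjamini-Hochberg adjustment over all genes tested and a threshold of 0.05. Fits of small against large used the libraries of 1 sex and region, and fits between regions all 86 libraries. Alternatives were DESeq2 1.42.0 size factors and its Wald test, all genes with at least 1 count, all groups of a region in 1 fit, each library left out, and the animal as a block. Levels are CPM on 1 TMM scale over 86 libraries, and correlations used log2 CPM with a prior count of 0.5 and 100000 permutations (Python 3.11.15, numpy 2.4.6, scipy 1.17.1). Simulated counts of the hippocampus were used to test the edgeR and DESeq2 fits of females and the edgeR fit of the interaction. Fits and spreads without the libraries of animals 20 and 28 and the pairs without Ttr were chosen after seeing the data.

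The number in the labels marks the animal, so numbers pair the regions. Deviations from group means over 17824 genes correlated between libraries of the same animal with medians of 0.439, 0.441 and 0.428 for the pairs of regions, and the lowest was 0.303. Total counts of 33711824 to 81865801 set the precision, and intervals of levels near 0 cover counting error only. No pair of replicates among 266 was identical.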

Additional observations from a re-analysis of the deposited data

Results flagged for a closer look

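In 16 of 120 groups of one gene, region, sex and social network size, the highest or the lowest library was far from the others by Dixon's criterion, which chance gives in about 1 in 20 groups. The prefrontal cortex library of animal 20, a male with large social network size, accounted for 6 of them, with Kl at 15.65 CPM (next 3.735), Folr1 at 4.421 (next 0.3626), Slc4a5 at 2.964 (next 0.3583), Prlr at 4.169 (next 0.7938), Sostdc1 at 4.998 (next 0.4265) and Enpp2 at 483.1 (next 249.8). The hypothalamus library of animal 28 was high for Slc4a5, at 2.551 CPM (next 0.5965).

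In the hypothalamus of males with small social network size, animal 6 was low for Kl, at 3.795 CPM (next 8.096), and high for Aqp1, at 4.259 CPM (next 1.194). Animal 10 of the same group was high for Prlr, at 46.26 CPM (next 27.73). In the prefrontal cortex of males with small social network size, animal 18 was high for Aqp1, at 6.773 CPM (next 2.131), and animal 6 for Steap1, at 0.2796 CPM (12 counts).

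Among females, animal 8 of the small group was high for Clic6 in the prefrontal cortex, at 7.728 CPM (next 1.62). Animal 5 of that group was low for Slc4a5, at 0.03138 CPM (1 count), and animal 17 of the large group was low for Folr1, at 0.0 CPM (0 counts). At so few counts the distance on the log2 scale depends on the prior count. In the hippocampus, animal 26 of the large group was low for Slc4a5, at 1.895 CPM (next 3.87).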

How the results depend on the processing

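No gene of the 10 passed in a comparison of small with large social network size under any alternative run. The counts of genes correlated with Ttr changed most. By r, 5 in the prefrontal cortex fell to 0 without the 2 libraries farthest from the median of Ttr and to 0 without the library of animal 20, and in the hypothalamus 4 fell to 1 without the 2 farthest libraries. By rho, 1 fell to 0 in the prefrontal cortex under both, and 3 stayed 3 in the hypothalamus without the 2 farthest. Aqp1 between hippocampus and prefrontal cortex passed at 0.47 (edgeR adjusted p = 0.0158) with the animal as a replicate block, which brought the genes passing to 10, and at 0.40 (edgeR adjusted p = 0.0448) without the libraries of animals 20 and 28. The block changed no other call. The log2 difference of Ttr in the hippocampus of females ranged from -0.31 to 0.03 when 1 library was left out, and was above 0, at 0.0337, only without animal 2 of the large group. The cause of these changes was not tested. Another 173 values of comparisons and 410 of single genes kept their direction and their side of the threshold or stayed within the range set. In the prefrontal cortex, median counts of 6 to 8 reads per library for Folr1, Slc4a5 and Steap1 limited what could be seen.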

Other observations

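Of 29 other choroid plexus genes, 11 had an r of at least 0.7 with Ttr over the 29 hippocampal libraries, among them Drc7 (0.833), Kcnj13 (0.807), a potassium channel, and Mfrp (0.770), and the median r of the 29 was 0.628, beside 0.637 for 11 ependymal genes, 2 of which reached 0.7. Slc29a4 (-0.404), Abca4 (0.0611) and Slc13a4 (0.0830) were the lowest. These 6 genes were chosen after their values were seen. In the prefrontal cortex and hypothalamus, 0 of 24 and 0 of 28 genes of this list that passed the count filter reached 0.7.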
